A study of Mus musculus with 6 samples.

Results

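The circRNAs of 10 genes of the presynaptic active zone and of vesicle priming were examined in the cortex of Control mice and of mice with temporal lobe epilepsy (TLE). The genes were Erc1, Erc2, Bsn, Pclo, Ppfia2, Unc13a, Unc13b, Unc13c, Cadps and Cadps2, and a circRNA belonged to the set when its listed host gene identifier mapped to one of these symbols. They gave 77 of the 11171 circRNAs in the deposited table, and each of the 10 genes had at least 1. All mice were 6-week-old C57BL/6 males, with 3 per group and 1 cortex library per mouse. TLE mice received scopolamine methyl bromide and then pilocarpine, their Status Epilepticus (SE) was ended with diazepam, and cortex was taken 24 h after SE. Control mice received saline in place of each drug. The TLE group is therefore a model of the first day after a chemically induced SE, and the effects of the 3 drugs and of the seizures cannot be told apart.

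A circRNA is a closed RNA ring made when the end of an exon is spliced backward onto the start of the same or an upstream exon. The active zone is the patch of presynaptic membrane where synaptic vesicles dock and fuse. Bassoon (Bsn) and Piccolo (Pclo) are giant scaffold proteins of this patch, the ERC or ELKS proteins (Erc1, Erc2) link RIM to it, and liprin-alpha proteins such as that of Ppfia2 recruit scaffold components. Munc13 proteins (Unc13a, Unc13b, Unc13c) open syntaxin so that docked vesicles become ready to fuse, and CAPS proteins (Cadps, Cadps2) prime vesicles too, with a known role for dense-core vesicles.

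Levels are given in SRPBM, a unit of back-spliced junction reads scaled to the mapped reads of the library. Every value was a whole multiple of 1 step per library, and 1 step, between 8.55 and 10.3 SRPBM, was taken as 1 junction read. The smallest value listed was 2 junction reads, and 3 junction reads (25.6 to 31.0 SRPBM) served as the floor, for counting error alone. The libraries held between 32504 and 56516 junction reads, of which 175 to 278 came from the 10 genes. Total SRPBM lay between 330961 and 360023 in the Control libraries and between 335753 and 489032 in the TLE libraries. Every pair of libraries within a group differed by more than sampling noise. Circles of neuronal marker genes were listed for 4 of 10 markers, with summed levels of 188 to 390 SRPBM in Control and 165 to 398 in TLE. Of 6 markers each, astrocytes and oligodendrocytes had 1 with circles, and microglia and endothelium had 0. Fewer cells of a type and less RNA per cell cannot be told apart in bulk cortex.

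The back-spliced junctions on which the comparisons turn are given here as the 20 bases before and the 20 bases after the junction, read 5′ to 3′ from the GENCODE M21 transcripts of build GRCm38. Lower case is the end of the last exon and capitals mark the start of the first exon of the circle. The set holds the leading circles of Pclo, Unc13b, Cadps, Cadps2 and Erc2, the circles whose groups did not overlap, and 2 pairs that join matching exons of paralogous genes.
Pclo exon 3, mmu_circ_0007907: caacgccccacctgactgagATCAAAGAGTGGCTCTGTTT
Unc13b exons 2 to 7, mmu_circ_0007411: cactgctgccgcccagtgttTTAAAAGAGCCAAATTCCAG
Erc2 exons 13 to 16, mmu_circ_0002439: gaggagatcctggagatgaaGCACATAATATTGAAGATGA
Erc2 exons 15 to 16, mmu_circ_0002441: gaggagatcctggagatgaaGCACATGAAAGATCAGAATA
Erc1 exons 15 to 17, mmu_circ_0008435: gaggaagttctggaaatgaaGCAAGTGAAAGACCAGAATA
Cadps exons 21 to 26, mmu_circ_0002319: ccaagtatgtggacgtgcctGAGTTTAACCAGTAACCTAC
Cadps exons 22 to 25, mmu_circ_0002324: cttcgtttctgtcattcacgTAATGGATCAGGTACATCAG
Cadps exons 22 to 27, mmu_circ_0002315: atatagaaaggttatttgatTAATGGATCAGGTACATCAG
Cadps2 exons 23 to 28, mmu_circ_0008564: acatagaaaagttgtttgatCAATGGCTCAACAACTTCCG
Cadps2 exons 25 to 29, mmu_circ_0008563: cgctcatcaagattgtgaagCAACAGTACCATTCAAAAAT

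The number of circles was uneven among the genes. Cadps had 19, Erc2 16, Erc1 11, Cadps2 10, Pclo 8, Ppfia2 5, Unc13b 4, Unc13c 2, and Bsn and Unc13a 1 each. The median was 6.5 circles per gene, against 2 over all 3469 host genes with a single identifier, and 4 of the 10 genes had 10 or more circles, as did 4.73% of all host genes. By summed level the genes ran from Cadps (742 ± 164 SRPBM, SD over 6 libraries) through Pclo (436 ± 76.7), Erc2 (264 ± 63.8), Unc13b (239 ± 89.6), Erc1 (139 ± 85.3), Cadps2 (124 ± 55.1) and Ppfia2 (55.3 ± 50.0) to Unc13c (10.7 ± 18.2), Bsn (8.66 ± 9.48) and Unc13a (2.85 ± 6.98). Cadps was above Pclo and Pclo above Erc2 in 6 of 6 libraries. The next neighbours did not keep their order: Erc2 was above Unc13b in 4 libraries, Unc13b above Erc1 in 5, Erc1 above Cadps2 in 3, and Cadps2 above Ppfia2 in 4. The last 3 genes were at 43.8 SRPBM or less in every library. Cadps made up 36.7% and Pclo 21.6% of the level of the set, and Cadps ranked 73 among all host genes.

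**Figure D1:**
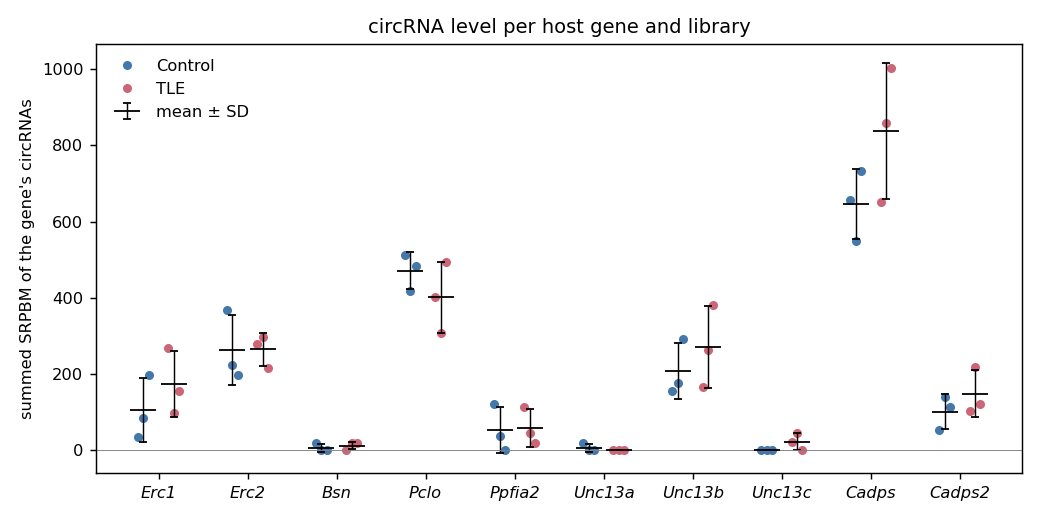
Summed SRPBM of all circRNAs of each of the 10 genes (y axis) in the 3 Control (blue) and 3 TLE (red) libraries, with the mean and SD of each group in black. Cadps and Pclo lie highest and the groups overlap for every gene.

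Of the 77 circles, 75 (97.4%; 95% Wilson confidence interval 91.0 to 99.3%) had both ends exactly on annotated exon boundaries of the host gene, as did 83.6% of all 11171 circRNAs. The interval treats circles as independent, although circles of a gene share ends, so it is likely too narrow. CircRNAs without a single listed host gene could not meet this condition and stay among the 11171, so the shares are not on equal terms. The 2 exceptions were Erc2 circles of 2 junction reads each. Of the 75, 74 could be placed on a single transcript, on which all exon numbers here are counted, and 1 Cadps circle joined boundaries of different transcripts. The 74 held a median of 4 exons and 592.5 nucleotides, against 4 and 608 over all 9217 circRNAs placed in this way. A single exon was held by 4 (5.41%, against 3.95%), and coding sequence filled 65 (87.8%, against 82.6%). None of the 74 began in exon 1 or ended in the last exon, as only 11 and 7 of the 9217 did. Exon 2 was the start of 8 (10.8%), against 29.2% of all placed circRNAs. The introns beside the 74 circles had medians of 12422 bp upstream and 20157.5 bp downstream, against 10283 and 8679 bp over all placed circRNAs. Which exons between the ends were kept is not shown by junction reads, so lengths follow from the annotation.

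Pclo had a single dominant circle. It was exon 3 alone (mmu_circ_0007907, GRCm38 chr5:14539410-14540801, plus strand), a coding exon of 1392 nucleotides, and it held 219 of the 292 junction reads of the gene (75%), the highest number of any circle in the set. Its level was 419, 316 and 405 SRPBM in the Control libraries and 207, 228 and 372 in the TLE libraries. TLE replicates 1 and 2 were below all Control libraries, and TLE replicate 3 was above Control replicate 2, so the groups overlapped. The means were 380 ± 55.7 and 269 ± 90.0 SRPBM (SD, n = 3), and limma gave a log2 fold change of -0.51 (standard error 0.28, unadjusted p = 0.0885, adjusted p = 0.922). With libraries set to equal total SRPBM, the TLE libraries (233, 211 and 289) all lay below the Control libraries (452, 362 and 427). On that scale limma gave a log2 fold change of -0.72 (unadjusted p = 0.0052, adjusted p = 0.939). The other 7 Pclo circles together were at 94.0, 102 and 77.5 SRPBM in Control mice and at 196, 78.9 and 121 in TLE, with overlap. The exon 3 end was also the end of the circle from exon 2 to exon 3, so that 84.6% of the Pclo junction reads left from this exon. Over the whole gene the Control libraries were at 513, 418 and 482 SRPBM and the TLE libraries at 403, 307 and 493. On the deposited scale this was the only gene of the 8 tested with a lower TLE estimate (log2 fold change -0.24, standard error 0.27, adjusted p = 0.905).

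Bsn, the gene of the other giant scaffold protein, had 1 circle of 6 junction reads. It too was a single exon, exon 2 (mmu_circ_0010224, chr9:108139187-108139595, minus strand), of 409 nucleotides. It was listed at 17.1, 0 and 0 SRPBM in Control mice and at 0, 17.5 and 17.3 in TLE, which is 2 junction reads wherever it was found. No difference is detectable at this depth.

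Erc1 and Erc2 both made circles across most of their length, and in both genes a single 3′ exon was the commonest end. In Erc1 the end of exon 17 was used by 5 of 11 circles, with 60.4% of the junction reads, and in Erc2 the end of exon 16 by 4 of 16 circles, with 54.5%. These exons match: both are 161 nucleotides long and 117 bases (72.7%) are identical. The start of Erc1 exon 15 and that of Erc2 exon 15 also belong to matching exons, of 136 nucleotides with 101 identical bases. The Erc1 circle of exons 15 to 17 and the Erc2 circle of exons 15 to 16 thus join equivalent ends, and 33 of the 40 bases printed above are identical between them.

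That Erc1 circle (mmu_circ_0008435, chr6:119694571-119722308, minus strand) was listed at 0 in all 3 Control libraries and at 41.3, 26.3 and 17.3 SRPBM, or 4, 3 and 2 junction reads, in the TLE libraries. Of the 77 circles it was the only one found in every TLE library and no Control library, as were 0.671% of all 11171 circRNAs. On the deposited scale it had the lowest p of the 31 tested (log2 fold change 1.38, standard error 0.54, unadjusted p = 0.0214, adjusted p = 0.838). After rescaling to the same total, Pclo exon 3 had a lower unadjusted limma p (0.0052) than this Erc1 circle (0.029). The TLE mean of the Erc1 circle was 1.07-fold the floor of the Control libraries. No lower bound on the difference follows, since values under 2 junction reads are not listed and the error of the TLE mean is not counted. Its Erc2 equivalent was at 59.8, 0 and 0 SRPBM in Control mice and at 72.3, 35.1 and 60.6 in TLE. TLE replicate 2 lay below Control replicate 1, so these groups overlapped (log2 fold change 1.34, standard error 0.68, unadjusted p = 0.0667, adjusted p = 0.922).

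The leading circles of both genes were other ones. In Erc2 it ran from exon 13 to exon 16 (mmu_circ_0002439, chr14:28040343-28141381, plus strand), with 66 of 176 junction reads. It was at 214, 83.7 and 86.1 SRPBM in Control mice and at 51.6, 149 and 0 in TLE. TLE replicates 1 and 3 were below all Control libraries and TLE replicate 2 was within their range, and the circle was not listed in TLE replicate 3, the deepest library (log2 fold change -1.21, standard error 0.65, unadjusted p = 0.0791, adjusted p = 0.922). The remaining 15 Erc2 circles summed to 154, 139 and 112 SRPBM in Control and to 227, 149 and 216 in TLE. In Erc1 the leading circle ran from exon 2 to exon 17 (mmu_circ_0008438, chr6:119694571-119825819, minus strand) over 16 exons. It was at 34.2, 27.9 and 51.7 SRPBM in Control mice and at 72.3, 26.3 and 0 in TLE, with overlap (log2 fold change -0.42, standard error 0.66, adjusted p = 0.922).

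As sums over all circles, Erc1 was at 34.2, 83.7 and 198 SRPBM in Control mice and at 269, 96.4 and 156 in TLE. Erc2 was at 367, 223 and 198 in Control and at 279, 298 and 216 in TLE. Neither gene separated the groups. The log2 fold changes were 0.78 (standard error 0.50, adjusted p = 0.854) for Erc1, and 0.04 (standard error 0.32, adjusted p = 0.985) for Erc2, whose sign turned on rescaling to the same total (-0.17). Ppfia2 was at 120, 37.2 and 0 SRPBM in Control mice and at 114, 43.8 and 17.3 in TLE, with overlap (log2 fold change 0.37, standard error 0.73, adjusted p = 0.939). Its leading circle, exons 7 to 8 (mmu_circ_0000011, chr10:106800737-106819557, plus strand), was listed only in replicate 1 of each group, at 59.8 and 41.3 SRPBM.

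**Figure D2:**
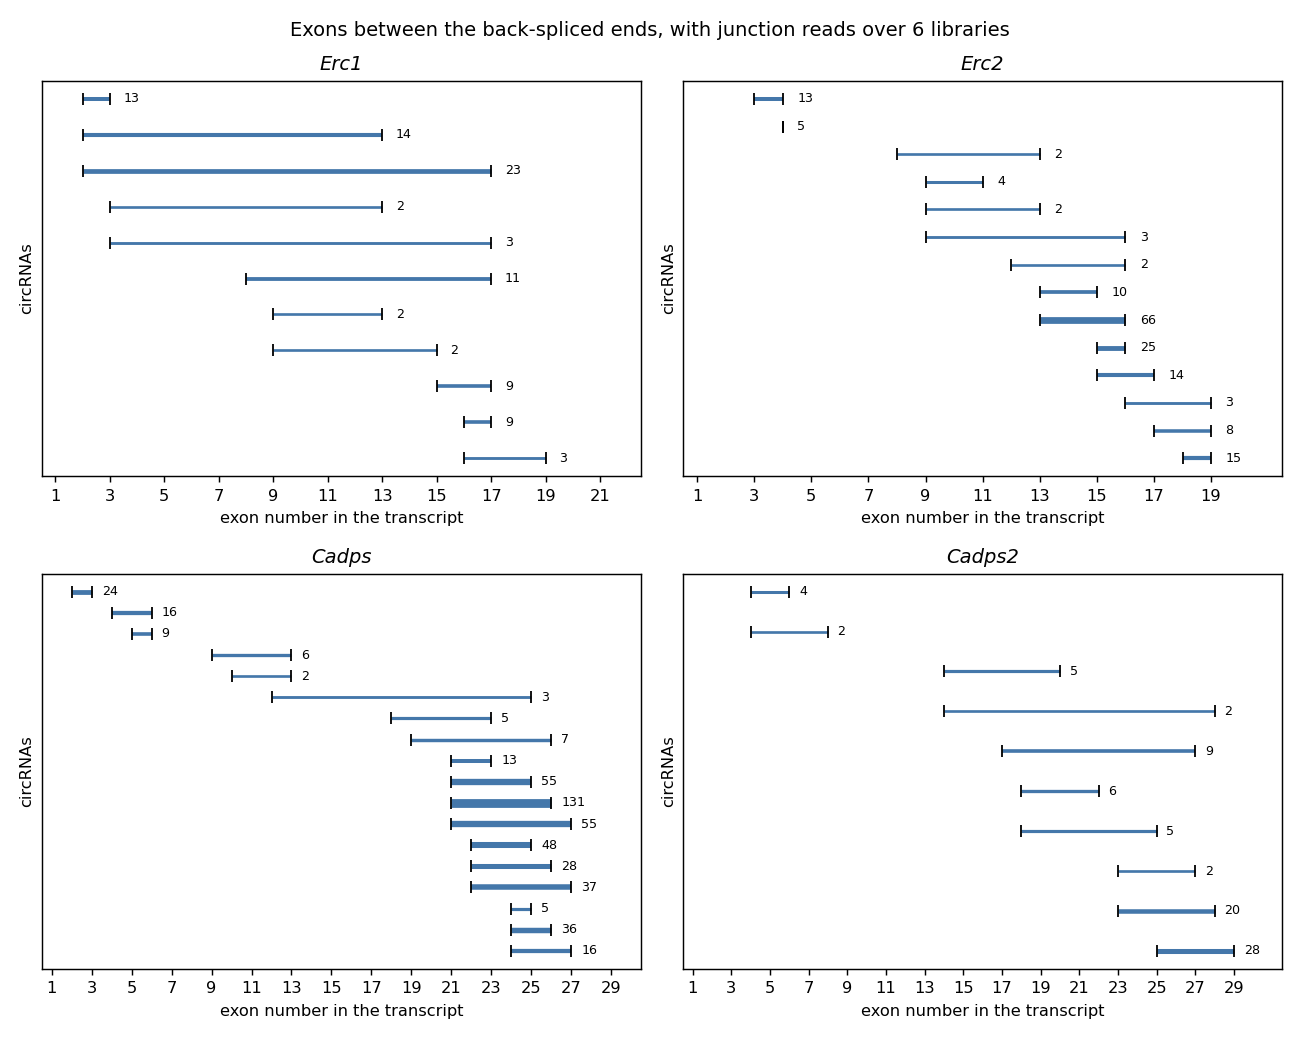
Circles of Erc1, Erc2, Cadps and Cadps2 that could be placed on a transcript, drawn from first to last exon (x axis, exon number in the transcript used for each circle), with line width and the number beside each line giving junction reads summed over 6 libraries. Circles of Cadps crowd between exons 21 and 27, where 1 of them reached 131 reads, while the Erc1 circles span up to 16 exons.

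Among the priming genes, Unc13b held most junction reads of its family, 161 against 7 for Unc13c and 2 for Unc13a. Its 4 circles used 2 starts (exons 2 and 3) and 2 ends (exons 6 and 7) in every combination, and 96.3% of the junction reads came from circles that begin in exon 2. The leading one, exons 2 to 7 (mmu_circ_0007411, chr4:43087903-43115160, plus strand), was at 154, 112 and 172 SRPBM in Control mice and at 145, 132 and 268 in TLE. Only TLE replicate 3 was above the Control range (log2 fold change 0.24, standard error 0.34, adjusted p = 0.922). The circle of exons 2 to 6 (mmu_circ_0007410) had 45 junction reads. It was at 0, 65.1 and 103 SRPBM in Control mice and at 20.7, 114 and 95.2 in TLE, so that both groups held a library with little or none of it. Summed over the gene, Control was at 154, 177 and 293 SRPBM and TLE at 165, 263 and 381, with overlap (log2 fold change 0.33, standard error 0.35, adjusted p = 0.905).

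The paralogues Unc13a and Unc13c were hardly found. Unc13a had 1 circle, exons 27 to 30 (mmu_circ_0009991, chr8:71644553-71645983, minus strand), with 2 junction reads in Control replicate 1 (17.1 SRPBM) and 0 in the other libraries. Unc13c had 2 circles, of which exons 5 to 8 (mmu_circ_0010714, chr9:73749482-73758677, minus strand) led with 5 junction reads. The gene was at 0 in each Control library, and its TLE values were 20.7, 43.8 and 0 SRPBM. Neither gene passed the filter on low values, and neither difference is detectable at this depth.

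Cadps had a cluster of circles near its 3′ end. Starts at exons 21, 22 and 24 were joined with ends at exons 25, 26 and 27, and all 9 combinations were listed. These 9 circles held 411 of the 498 junction reads of the gene (82.5%), and 7 of them were found in all 6 libraries. The gene has 29 exons in the transcript used. Together the 9 were at 590, 456 and 620 SRPBM in Control mice and at 547, 728 and 736 in TLE, with TLE replicate 1 inside the Control range.

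The ends used within this cluster were compared as shares of its level in each library. Circles from exon 21 made up 60.8 ± 2.65% of the cluster in Control and 55.9 ± 4.68% in TLE (SD, n = 3). Circles from exon 22 made up 25.5 ± 4.31% and 28.6 ± 2.79%, and those from exon 24 made up 13.7 ± 4.23% and 15.5 ± 6.20%. Circles ending in exon 26 made up 51.5 ± 3.98% in Control and 43.5 ± 5.06% in TLE. The per-library values for this end were 52.2, 55.1 and 47.2% in Control and 37.7, 45.8 and 47.1% in TLE, so the TLE values all lay lower, although 47.1 and 47.2% are nearly equal. Ends in exon 25 held 23.8 ± 3.72% and 29.7 ± 10.3%, and ends in exon 27 held 24.7 ± 0.263% and 26.7 ± 5.26%. For every other start and end in the cluster the groups overlapped. The shares depend on each other, and the cluster was chosen from these data. The lower share of exon 26 was not tested and has no count over other genes beside it.

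**Figure D3:**
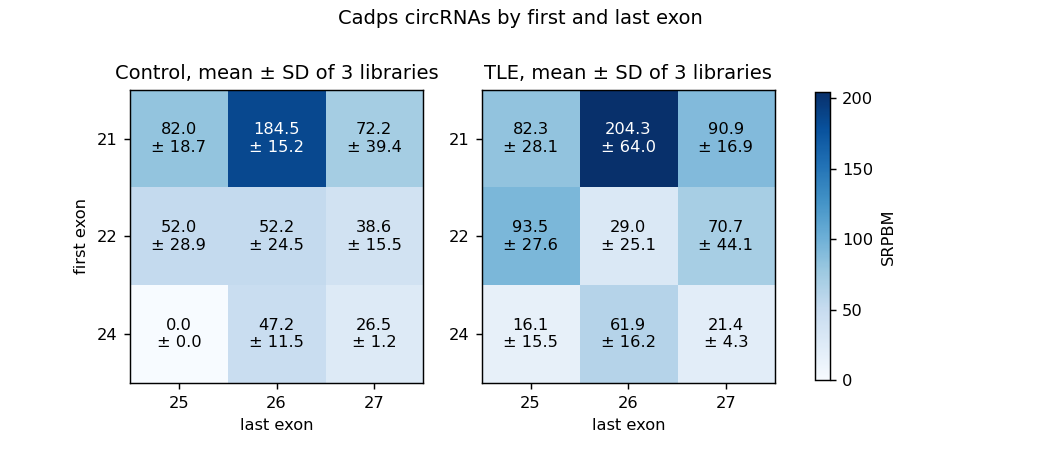
Mean SRPBM ± SD of 3 libraries for the 9 Cadps circles, by first exon (rows) and last exon (columns), in Control (left) and TLE (right). The circle of exons 21 to 26 is highest in both groups, and the circle of exons 22 to 25 has means of 52.0 and 93.5 SRPBM and did not pass the threshold.

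The leading Cadps circle, exons 21 to 26 (mmu_circ_0002319, chr14:12418005-12457829, minus strand), was at 197, 167 and 190 SRPBM in Control mice and at 134, 219 and 260 in TLE. TLE replicate 1 was below and the other TLE libraries above all Control libraries (log2 fold change 0.09, standard error 0.31, adjusted p = 0.959), and the sign turned on rescaling (-0.12). The circle of exons 22 to 25 (mmu_circ_0002324, chr14:12439871-12454319, minus strand) was at 68.4, 18.6 and 68.9 SRPBM in Control mice and at 124, 70.1 and 86.5 in TLE. All TLE values exceeded all Control values, the nearest being 70.1 and 68.9 SRPBM (log2 fold change 0.76, standard error 0.47, unadjusted p = 0.127, adjusted p = 0.922). Summed over the gene, Control was at 658, 549 and 732 SRPBM and TLE at 651, 859 and 1004. TLE replicate 1 again lay within the Control range (log2 fold change 0.35, standard error 0.24, adjusted p = 0.866).

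Cadps2 repeated part of this arrangement. Its exons 23 to 29 match Cadps exons 22 to 28 in order, each with the same length and between 66.2 and 81.8% identical bases. The Cadps2 circle of exons 23 to 28 (mmu_circ_0008564, chr6:23287664-23323435, minus strand) and the Cadps circle of exons 22 to 27 (mmu_circ_0002315, chr14:12411554-12454319, minus strand) are both 604 nucleotides long with 444 identical bases (73.5%). A second such pair, Cadps2 exons 23 to 27 and Cadps exons 22 to 26, is 496 nucleotides long. Its Cadps2 circle had only 2 junction reads, all in Control replicate 1. A further pair, outside the 3′ cluster, joined exons 4 to 6 in both genes. There the Cadps2 circle had 4 junction reads, all in Control replicate 3. The levels of the first pair differed in their spread: the Cadps circle was found in all 6 libraries, at 34.2, 55.8 and 25.8 SRPBM in Control mice and at 20.7, 87.7 and 104 in TLE. The Cadps2 circle was listed only in Control replicate 2, at 65.1 SRPBM, and TLE replicate 2, at 114.

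The leading Cadps2 circle was exons 25 to 29 (mmu_circ_0008563, chr6:23269246-23314207, minus strand), with 28 of 83 junction reads. Its start matches that of Cadps exon 24, and no placed Cadps circle ended in the matching exon 28. It was at 17.1, 0 and 43.1 SRPBM in Control mice and at 51.6, 87.7 and 51.9 in TLE. All TLE values exceeded all Control values, which corresponded to 2, 0 and 5 junction reads against 5, 10 and 6 (log2 fold change 1.27, standard error 0.61, unadjusted p = 0.0507, adjusted p = 0.922). Over all Cadps2 circles, Control was at 51.3, 139 and 112 SRPBM and TLE at 103, 219 and 121, with overlap (log2 fold change 0.50, standard error 0.43, adjusted p = 0.891).

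Across the set, 31 circles were above 0 in at least 3 libraries and were tested with limma on log2(SRPBM + 17.1), and they held 85.5% of the 1352 junction reads. None of the 31 passed a log2 fold change of 1.5 in either direction with an unadjusted p under 0.05. Over all 4271 circRNAs tested, 1.26% passed it as higher in TLE and 0.304% as lower. An unadjusted p under 0.05 was reached by 1 of the 31, the Erc1 circle of exons 15 to 17, against 5.2% of all circRNAs tested, and the smallest adjusted p was 0.838. Of the sums over host genes, 0 of the 8 tested passed the threshold, against 1.53% higher and 0.371% lower of 2157 host genes, and 0 had an unadjusted p under 0.05 in limma, against 6.17%. Fold changes on this scale understate those of circles with few reads. The remaining 46 circles had at most 20 junction reads each and were not tested.

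Most estimates were above 0, as over all circRNAs, and whether the set differed from all circRNAs in this was not tested. In 21 of the 31 circles the log2 fold change was above 0, as in 60.5% of all circRNAs tested, and the median was 0.37 against 0.17. For the host sums 7 of 8 were above 0, against 65.3% of all, with medians of 0.35 and 0.20. All TLE libraries lay above all Control libraries in 3 of 31 circles, against 8.94% of all circRNAs, and below them in 0, against 2.11%. No host sum separated the groups either way, against 10.7% above and 1.95% below over all host genes. With libraries set to equal totals, 1 of 31 circles lay above (5.08% of all) and 2 below (4.96% of all), the latter being Pclo exon 3 and the Cadps circle of exons 24 to 27. Of the 3 circles above, only that of Erc1 kept its place.

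**Figure D4:**
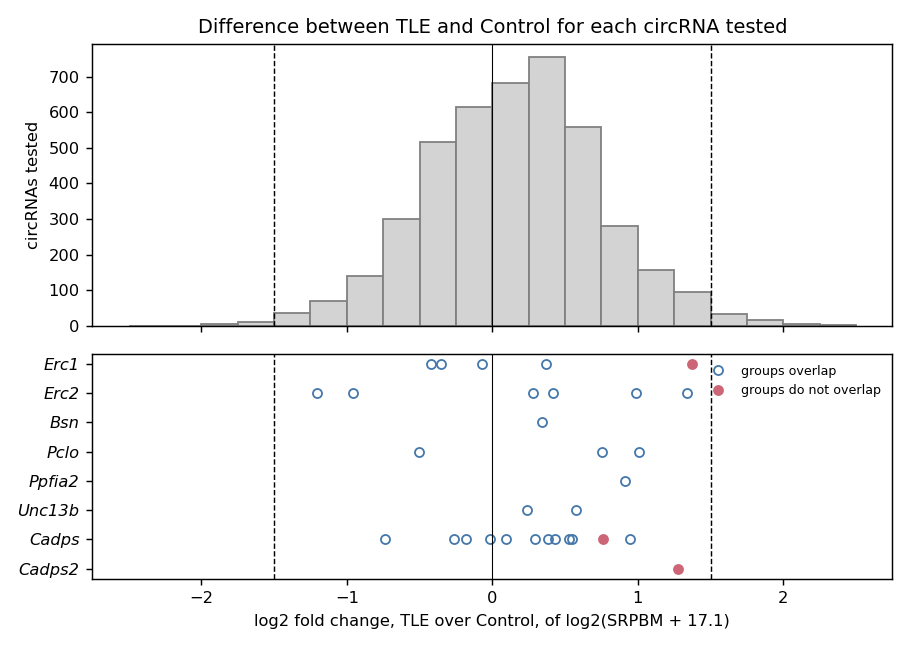
Histogram of limma log2 fold changes (TLE over Control, on log2(SRPBM + 17.1)) of all 4271 circRNAs tested (top), and the 31 circles of the 10 genes by gene (bottom), with dashed lines at 1.5 in either direction. All 31 lie between the lines, from -1.21 to 1.38, and the 3 filled points are circles whose groups did not overlap.

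Summed over all 77 circles, the level was 1931, 1627 and 2016 SRPBM in Control and 2004, 2148 and 2406 in TLE. The lowest TLE library lay below the highest Control library. The means were 1858 ± 204 and 2186 ± 203 SRPBM (SD, n = 3), a log2 ratio of 0.23, which was 0.01 after rescaling to the same total. As a share of all junction reads, the set made up 0.534 ± 0.0368% in Control and 0.538 ± 0.0536% in TLE. By role, the 5 scaffold genes summed to 897 ± 145 and 909 ± 151 SRPBM and the 5 priming genes to 961 ± 153 and 1277 ± 298 SRPBM. The priming sums ran from 865 to 1137 SRPBM in Control and from 940 to 1506 in TLE, with overlap. Sums by role were not set to equal totals.

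More of the circles were detected in TLE libraries than in Control libraries. The numbers were 29, 33 and 31 in Control and 37, 34 and 41 in TLE, without overlap. Over all circRNAs the libraries overlapped, with 4624, 4288 and 4659 detected in Control and 3989, 5052 and 5976 in TLE. As a share of all circRNAs detected, the set made up 0.627, 0.770 and 0.665% in Control. In TLE it made up 0.928, 0.673 and 0.686%, so the shares overlapped. The mean number of circles of the set was 31 ± 2 in Control and 37.3 ± 3.51 in TLE (SD, n = 3). Requiring 3 junction reads gave 21, 23 and 26 in Control against 30, 27 and 28 in TLE. At the equal depth of 32504 junction reads, the expected numbers were 25.4, 31.1 and 28.1 in Control and 37.0, 28.3 and 28.9 in TLE, and the groups overlapped. Of the 77 circles, 30 (39.0%) were found in exactly 1 library, against 45.4% of all circRNAs, and 10 (13.0%) in all 6, against 13.9%. In TLE only there were 22 circles (28.6%, against 30.5% of all) with at most 9 junction reads each, and in Control only 16 (20.8%, against 22.6%) with at most 7. Cadps gave 8 of the 10 circles found in all libraries, and Pclo and Unc13b 1 each.

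**Figure D5:**
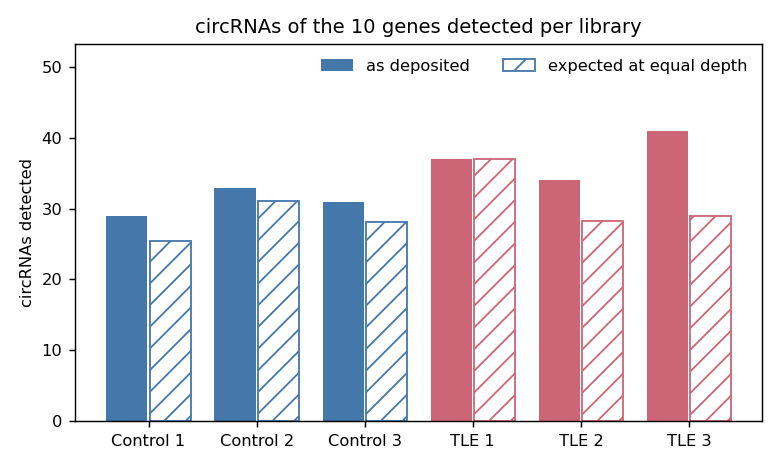
Number of circRNAs of the 10 genes detected in each library (filled bars; Control blue, TLE red) and the number expected when each library is thinned to the 32504 junction reads of TLE 1 (hatched bars). The filled TLE bars (34 to 41) stand above the Control bars (29 to 33), and the hatched bars overlap.

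Further genes of the same machinery were taken from 2 lists. Of 32 other active zone genes, 13 had circles, and of 57 other genes of priming, release and the vesicle cycle, 27 had them. In the first list 0 of 11 host sums tested passed the threshold, and 2 of 52 circles did, both higher in TLE. The second list had 0 of 21 host sums and 0 of 47 circles past it. Over all circRNAs tested 1.26% passed as higher and 0.304% as lower, and over all host sums 1.53% and 0.371%. The median log2 fold changes of the host sums were 0.15 and 0.12, against 0.20 over all host genes. Among the 2 circles was one of Rims2, whose RIM protein tethers vesicles and calcium channels (mmu_circ_0002809), listed at 0 in each Control library, whereas the TLE libraries had 51.6, 26.3 and 26.0 SRPBM. In TLE mice its mean level was 1.31-fold the floor, which sets no lower bound on the difference (limma log2 fold change 1.56, standard error 0.56, unadjusted p = 0.0134, adjusted p = 0.838). The other was a circle of Ptprd, a presynaptic receptor phosphatase (mmu_circ_0007530), at 0, 18.6 and 0 SRPBM in Control and 62.0, 70.1 and 43.3 in TLE (log2 fold change 1.77, standard error 0.62, unadjusted p = 0.0109, adjusted p = 0.838). Rims2 alone, with 31 circles, was at 1795, 2083 and 2119 SRPBM in Control mice and at 2428, 3191 and 2907 in TLE. On the deposited scale the groups did not overlap (limma log2 fold change 0.50, standard error 0.20, unadjusted p = 0.0192, adjusted p = 0.766). All TLE libraries lay above all Control libraries in 10.7% of host sums tested. These Rims2 values are not set to equal totals, and total SRPBM was highest in TLE replicate 3.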

How the data were processed

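Total RNA of cortex was depleted of ribosomal RNA and sequenced by the authors, who identified circRNAs from BWA-MEM alignments with CIRI and deposited 1 table of SRPBM values, a normalized junction signal, 6 times over. The submitters' processing notes name build mm10, and the authors used DESeq2 for their own comparison. No values of the authors' comparisons were used. Host identifiers were mapped to symbols and ends to exons with GENCODE M21 (GRCm38), in Python 3.11.15 with pandas 2.3.3 and SciPy 1.17.1. limma 3.58.1 in R 4.3.3 (empirical Bayes with trend, no covariates) was run after adding 17.1 SRPBM, the lowest listed level, and taking log2, over all 4271 circRNAs and 2157 host sums above 0 in at least 3 libraries. Benjamini-Hochberg adjustment covered all features of a fit. The threshold is that of the study. The limma step was tested on simulated data that held counting error alone, with changes placed only in circles of many reads. That test therefore does not cover changes in circles of few reads or the further variation between libraries. Other pseudocounts, filters, scalings and left-out libraries were tried. The 10 genes, the other lists and the tests were chosen with earlier results of these data known. All 10 genes were named, with the leading circle of each, circles past the threshold and tested circles without overlap between the groups; other circles named for their exons were chosen after their values were seen. Counting error at 32504 to 56516 junction reads is only a lower limit on the error, since libraries within a group differed by more than that.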

Additional observations from a re-analysis of the deposited data

How the results depend on the processing

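None of the 8 host sums passed the threshold under any alternative run. The number of circles past it was 0 with no filter, with a filter at the median mean level, after rescaling, without the variance trend and with the replicate number as a block. It was 1 with a pseudocount of 8.55 SRPBM, with a pseudocount of 1 SRPBM and at a log2 fold change of 1, and between 0 and 2 when single libraries were left out. With either smaller pseudocount the circle was that of Erc1 exons 15 to 17 (2.06 and 4.79), and its value without TLE replicate 3 was 1.56. The Cadps2 circle of exons 25 to 29 passed without Control replicate 3 (1.71), and the Erc2 circle of exons 13 to 16 without TLE replicate 2 (-1.97). The smallest adjusted p of the 31 circles ranged from 0.267 to 0.978.

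The log2 ratio of the summed level was 0.012 after rescaling and between 0.15 and 0.30 with single libraries left out. The difference in circles detected was 4.5 to 8 with single libraries left out. All circles above 0 in at least 3 libraries (100%) had both ends on exon boundaries. After rescaling, chosen after seeing the data, circles with all TLE libraries above Control fell from 3 to 1, and those below rose from 0 to 2. The sign of the log2 fold change turned after rescaling for the leading Cadps circle (-0.12) and the Erc2 sum (-0.17). With single libraries left out it also turned for the leading circles of Erc1 (-0.99 to 0.20), Unc13b (-0.054 to 0.42) and Cadps (-0.089 to 0.35), and for the sums of Erc2 (-0.12 to 0.30) and Ppfia2 (-0.41 to 1.09). The cause was not tested. The direction and side of the threshold held in 205 recomputed values of named circles and sums, 10 turned sign and 5 passed the threshold anew.

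Same-numbered libraries did not deviate together (correlations from -0.0085 to 0.021), and the replicate block left 0 circles and 0 host sums past the threshold. The planned count models on junction reads were not run, since reads could be inferred only through steps. With a smallest listed value of 2 junction reads, differences among circles of few reads are not detectable.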

Other observations

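Within the Erc2 locus a further circRNA was listed without a host gene (mmu_circ_0002446, chr14:28317249-28384043, plus strand), and it was not counted among the circles of Erc2. It was at 59.8, 0 and 43.1 SRPBM in Control mice and at 20.7, 78.9 and 69.2 in TLE mice, with overlap.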
